A study of Mus musculus with 16 samples.

Results

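The protein parts of the cytosolic ribosome are described here as they were read in mouse liver. Members were the genes whose RefSeq symbol is Rpl or Rps followed by a number, with or without a closing a, x or l, together with Rplp0, Rplp1, Rplp2 and Rpsa. Of 83 such symbols in the RefSeq table, 70 had a probe that could be named on the array, out of 7413 genes named in all. Each gene was read by its probe of highest mean, and 64 of the 70 genes were tested (37 of the large and 27 of the small subunit). The 6 others had a probe that stood above the noise on too few arrays to be tested, so the 64 are not all members.

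Liver RNA came from 16 male mice aged 23 weeks, 7 carrying a Lactb transgene and 9 FVB wildtype; the labels name no strain for the transgenic mice. All had eaten chow with 4% fat up to 11 weeks of age and chow with 6% fat afterwards. The promoter of the transgene and the number of founder lines are not given in the labels used here. Lactb itself was read by none of the named probes (0 probes), and the genotype labels stand without that check. Each array was taken as a separate animal, on the submitters' count of 16 mice.

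A cytosolic ribosome joins a small subunit, which holds the messenger RNA and reads its codons, to a large subunit, which forms the peptide bonds. Each subunit is a core of ribosomal RNA clothed in proteins that are made in near equal number, and in hepatocytes, which secrete most plasma proteins, their messenger RNAs are among the most abundant of the cell. In mammals these messenger RNAs start with a C followed by an unbroken stretch of C and T (U in the RNA), the terminal oligopyrimidine tract, through which mTORC1 and the RNA-binding protein Larp1 adjust their translation together.

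The RefSeq promoter table (GRCm38.p6) held 54 windows for 46 of the 64 tested genes. A C as the first annotated base of the transcript, followed by at least 4 bases that are each C or T on the transcribed strand, was found in 9 of the 54 windows (16.7%), against 823 of 32851 windows of the same length over all genes (2.51%). When such a stretch could begin within 10 bases of the annotated start, or cover it, the counts were 29 of 54 (53.7%) and 9601 of 32851 (29.2%). The 9 genes with the tract at the annotated start had a median difference between genotypes of 0.055 on the log2 scale and 8 of them had the higher mean in transgenic liver, while the other 37 genes had a median of 0.071 with 34 higher. The genes below are shown because the results turn on them. Each line gives 25 bases before and 20 bases from the annotated start onward, from RefSeq on GRCm38.p6, written from upstream to downstream on the transcribed strand, with the stretch of C and T that covers the annotated start or begins within 10 bases of it in capitals. Rpl12 lies at chr2:32961687-32961731 (plus strand), Rpl15 at chr14:18270967-18271011 (minus strand), Rpl35 at chr2:39005112-39005156 (minus strand) and Rps6 at chr4:86857348-86857392 (minus strand).
Rpl12: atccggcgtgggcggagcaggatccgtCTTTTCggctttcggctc
Rpl15: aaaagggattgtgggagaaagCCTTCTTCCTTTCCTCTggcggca
Rpl35: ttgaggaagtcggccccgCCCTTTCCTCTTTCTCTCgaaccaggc
Rps6: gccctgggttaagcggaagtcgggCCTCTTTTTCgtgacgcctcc

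The next lines set Rps27 beside its close paralog Rps27l, and show Rps25 and Rps2, whose levels varied least between livers. Rps27 lies at chr3:90213629-90213673 (minus strand), Rps27l at chr9:66946061-66946105 (plus strand, the upstream of its 2 annotated starts), Rps25 at chr9:44407689-44407733 (plus strand) and Rps2 at chr17:24720038-24720082 (plus strand).
Rps27: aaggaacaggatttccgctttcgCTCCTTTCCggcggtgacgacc
Rps27l: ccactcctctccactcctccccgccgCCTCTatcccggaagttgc
Rps25: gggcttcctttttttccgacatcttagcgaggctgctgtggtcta
Rps2: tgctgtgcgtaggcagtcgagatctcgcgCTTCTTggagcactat

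In Rps27 the stretch covers the annotated start, and in Rps27l it begins 1 base downstream. The window of Rps25 has no stretch of this kind that covers the annotated start or begins within 10 bases of it. Farther upstream the window does hold a stretch of C and T, in small letters because it lies outside the places searched.

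Values are background-corrected, quantile-normalized log2 intensities, called levels here, and a difference is transgenic minus wildtype on that scale. Arrays stood above their noise on 9907 to 11564 of 24048 probes. The markers fixed for hepatocytes that had a named probe (4 of 8: Apoa1, Apoa2, Serpina1a and Trf) stood above the noise on all 16 arrays. The signal of a probe depends on its sequence, so levels are compared between animals and not between genes.

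No ribosomal protein gene passed the test between genotypes. Of 64 genes 0 had a limma adjusted p under 0.05 (0% of 11317 probes tested over the array did, 0 probes) and 0 had an unadjusted p under 0.05 (2.93% of all probes did). Adjusted p-values of the members ran from 0.932 to 0.997. The means were nevertheless one-sided: 57 of 64 genes (89.1%) had the higher mean in transgenic liver, beside 48.7% of all probes. The shift was small, with a median difference of 0.061 (quartiles 0.036 and 0.108), beside a median of -0.0041 over all probes. Both subunits had it, at a median of 0.059 in the large subunit (33 of 37 higher) and 0.066 in the small subunit (24 of 27 higher). These counts do not test the shift, since the genes vary together from animal to animal, as described below. The median difference was 0.015 under median scaling and 0.017 with the main axis of variation of the arrays as a covariate. It was 0.094 without transgenic replicate 1. Leaving out transgenic replicate 1, or wildtype replicate 4, left 4 members (6.25%) with an unadjusted p under 0.05, beside 7.08% and 5.25% of all probes, and leaving out any other animal 0 or 1.

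The fit described here, which takes the animals as independent, bounded these differences closely. In it all 64 genes had a 95% interval that kept inside a 1.5-fold rise or fall, as did 90.5% of all probes. Under other settings the difference reached 0.41 for Rpl12 and 0.40 for Rps24, and the intervals of those fits are not given here. The bound farthest from no change was a 1.36-fold rise, for Rps24. The offset of the background correction shrinks folds and spread of probes with low signal: with an offset of 50 the SD of Rps4l over the 16 animals fell from 0.27 to 0.21. No member separated the genotypes: 0 of 64 genes had all transgenic levels on one side of all wildtype levels (0.00884% of all probes did, 1 probe).

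**Figure D1:**
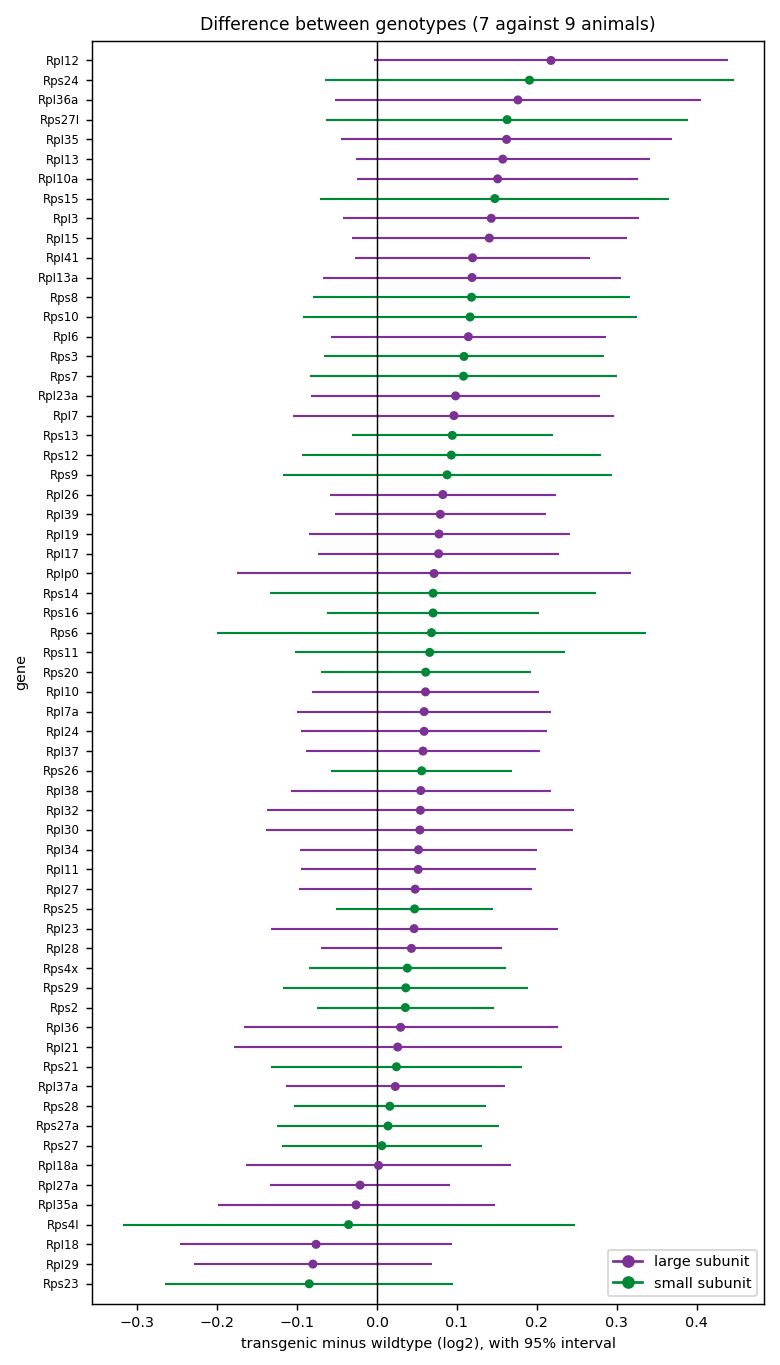
Difference between genotypes for 63 of the 64 tested genes: the horizontal axis is transgenic minus wildtype (log2), points are the fitted difference, lines the 95% interval, and colour the subunit. Points of 57 genes lie to the right of 0, and the interval of every gene drawn includes 0.

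Among proteins of the large subunit, Rpl12 had the smallest p of all members. It encodes a protein at the base of the stalk where elongation factors dock. Levels of Rpl12 ran from 10.30 through a median of 10.66 to 10.87 in transgenic liver, and from 10.08 through 10.45 to 10.67 in wildtype liver. The groups overlapped, with transgenic replicates 3 and 7 highest of all and wildtype replicates 8 and 9 lowest. The difference was 0.22 (SE 0.11, 95% interval -0.0043 to 0.44, n = 7 and 9), unadjusted p = 0.054 and adjusted p = 0.932 by limma.

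Rpl10a, a protein of the mobile L1 stalk near the exit for spent tRNA, ran from 11.78 through 11.98 to 12.29 in transgenic and from 11.66 through 11.89 to 12.06 in wildtype liver. Its difference was 0.15 (SE 0.083). Rpl3, which reaches close to the site of peptide bond formation, differed by 0.14 (SE 0.088), and 6 of 7 transgenic animals lay above the wildtype mean for both genes. Rpl35, a protein beside the tunnel through which the new chain leaves, ran from 12.69 through 13.13 to 13.23 against 12.63 through 12.80 to 13.18, a difference of 0.16 (SE 0.098). Rpl13 (0.16, SE 0.087), Rpl36a (0.18, SE 0.11) and Rpl15 (0.14, SE 0.082) are further structural proteins of that subunit. None of these passed the limma test, each with an adjusted p of 0.932, and in each the transgenic and wildtype ranges overlapped.

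Rpl41 encodes the shortest ribosomal protein, a single helix in a bridge between the subunits. It was the only tested member whose 7 transgenic levels each exceeded the mean of the wildtype group, at 14.40 through 14.42 to 14.55 against 13.95 through 14.37 to 14.50. Wildtype replicate 8 lay well below the other animals, at 13.95. The difference of 0.12 (SE 0.070, adjusted p = 0.932 by limma) had an interval of -0.028 to 0.27, and it was 0.072 without wildtype replicate 8.

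Among proteins of the small subunit the smallest p belonged to Rps13 and Rps24. Rps13 ran from 12.12 through 12.29 to 12.42 in transgenic and from 12.07 through 12.18 to 12.34 in wildtype liver, a difference of 0.094 (SE 0.060). Rps24, a gene mutated in some families with Diamond-Blackfan anaemia in humans, differed by 0.19 (SE 0.12) and was read by a dim probe, above the noise on 15 of 16 arrays. Its levels overlapped widely, at 6.68 to 7.10 in transgenic and 6.06 to 7.08 in wildtype liver, and its difference was 0.11 without wildtype replicate 1. Rps6, whose phosphorylation by S6 kinase is the usual readout of mTORC1 activity, differed by 0.068 (SE 0.13). Rps14 (0.070, SE 0.097) and Rps27a (0.014, SE 0.066), which is made fused to ubiquitin, also overlapped between the genotypes. The adjusted p of these 5 genes lay between 0.932 and 0.981 by limma.

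The genes with a lower mean in transgenic liver did not differ beyond their spread either. Rps23, a protein of the decoding centre, was at 9.79 through 9.98 to 10.23 in transgenic and 9.86 through 10.05 to 10.30 in wildtype liver, a difference of -0.085 (SE 0.086). Rpl29 (-0.080, SE 0.071) and Rpl18 (-0.076, SE 0.081) were read close to background, above the noise on 10 and 7 of 16 arrays. Rpl35a (-0.026, SE 0.082) and Rpl27a (-0.021, SE 0.054) differed by less than 1 SE, and so did the S4-like gene Rps4l (-0.036, SE 0.13). Another probe of Rpl27a gave 0.049 (SE 0.067), so the sign of that gene depends on the probe, and those of Rpl27a and Rps4l also turned under cyclic loess. By limma the adjusted p of these 6 genes ran from 0.932 to 0.975.

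Rps27l, known as a gene that p53 switches on, encodes a close copy of Rps27. Rps27l ran from 12.81 through 13.06 to 13.13 in transgenic and from 12.26 through 12.91 to 13.21 in wildtype liver, with wildtype replicate 1 lowest. Rps27 stayed between 12.71 and 12.98 in all 16 livers. Their differences were 0.16 (SE 0.11) for Rps27l and 0.0060 (SE 0.060) for Rps27, with adjusted p of 0.932 and 0.989 by limma, and the difference between the paralogs was not tested. Without wildtype replicate 1 the difference of Rps27l was 0.088. The SD over the 16 animals was 0.23 for Rps27l and 0.089 for Rps27. Leaving wildtype replicate 1 out of the SD of Rps27l gave 0.148, and under median scaling the SDs over 16 animals were 0.192 and 0.139. Near-identical copies and processed pseudogenes are common in this family, and whether a probe reads one of them was not tested.

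Apart from genotype, the members differed from each other in how much they varied between livers. Their SD over the 16 animals ran from 0.047 to 0.27 with a median of 0.15, beside a median of 0.20 for all probes. Among probes with a mean level of at least 12, the median SD was 0.129 for the 45 members and 0.153 for all 409. Rps25, a small-subunit protein on the head of the subunit that some viral messenger RNAs need to start translation internally, varied least. Its levels ran from 13.06 through 13.13 to 13.18 in transgenic and from 13.02 through 13.09 to 13.13 in wildtype liver, and its SD of 0.047 was the lowest of all 11317 probes tested. Under cyclic loess it was again first, but it was number 19 when the scaling of the deposited values was kept and number 1624 under median scaling. Rps2, at the entry of the messenger RNA channel, had an SD of 0.067, and Rpl27a one of 0.071. Under median scaling these were 0.157 and 0.164. In all, 6 members were among the 100 least variable probes, beside 64 members among all 11317 probes tested. Median scaling put none of these 6 among the 100. At the other end stood Rps4l (0.27), Rps24 (0.26) and Rps6 (0.26). The SD of Rps24 was 0.17 without wildtype replicate 1. The probes of Rps4l and Rps24 gave low signal, and the noise share of their spread was not tested.

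**Figure D2:**
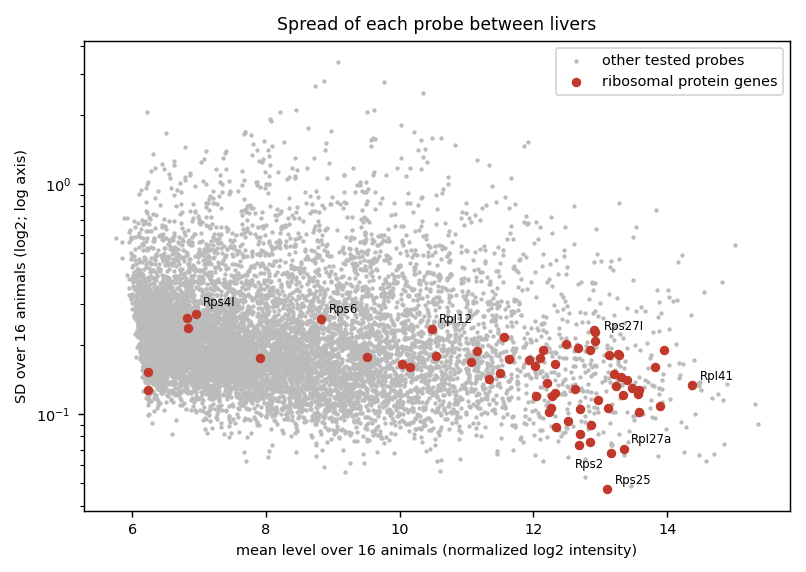
Spread of each probe between livers: the horizontal axis is the mean level (normalized log2 intensity), the vertical axis the SD over 16 animals on a log axis, grey points are other tested probes and red points the 64 ribosomal protein genes. Most red points lie at a mean level of 12 or more, and Rps25 is the lowest point of the plot at 0.047.

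The members moved together from liver to liver, across the genotype labels. For each gene the mean over the 16 animals was subtracted, and the remaining deviations were averaged over the 64 genes in each animal. This average ran from -0.093 through 0.072 to 0.13 in transgenic and from -0.15 through -0.019 to 0.099 in wildtype animals. Transgenic replicate 3 was highest (0.13, 58 of 64 genes above their own mean), followed by wildtype replicate 4 (0.099, 51 genes) and transgenic replicate 5 (0.096, 48 genes). Wildtype replicates 9 (-0.15, 9 genes) and 1 (-0.14, 4 genes) were lowest, followed by wildtype replicate 8 (-0.12, 13 genes), transgenic replicate 2 (-0.093, 11 genes) and transgenic replicate 1 (-0.086, 13 genes). Averaged over animals, transgenic liver stood at 0.038 ± 0.090 (SD, n = 7) and wildtype liver at -0.029 ± 0.092 (SD, n = 9), so the genotype means differed by less than the SD within either group.

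**Figure D3:**
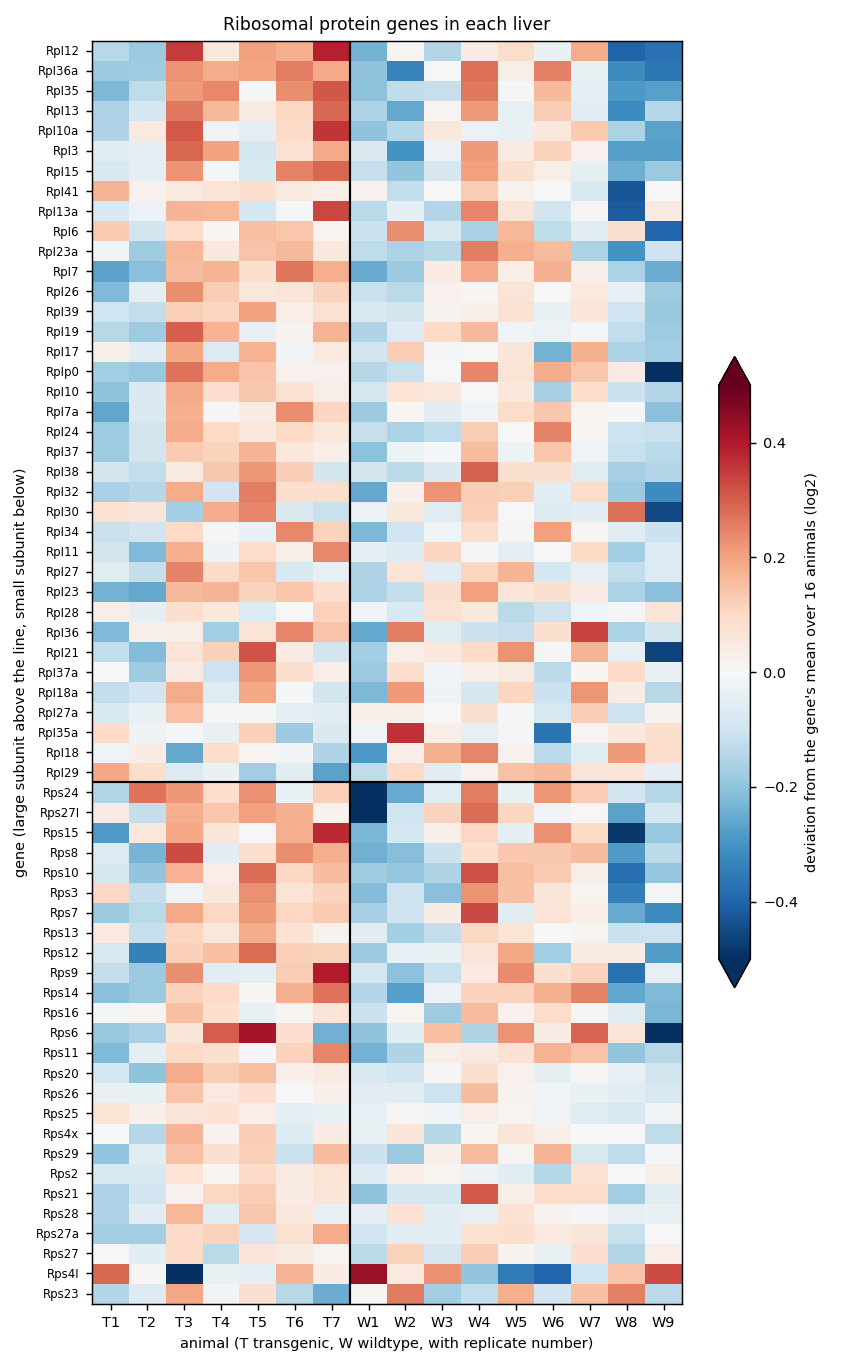
The deviations of 63 of the 64 tested genes (rows, large subunit above the line) in each of the 16 animals (columns, T transgenic and W wildtype with replicate number). Colour is the deviation from the gene's own mean over the animals (log2), red above and blue below, and the columns of wildtype replicates 1, 8 and 9 are mostly blue while that of transgenic replicate 3 is mostly red.

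Large and small subunit genes had like averages in each animal. In transgenic replicate 3 these were 0.14 and 0.11, and in wildtype replicate 9 they were -0.18 and -0.11. Wildtype replicate 8 had the lowest level of 16 genes, wildtype replicate 9 of 12 and wildtype replicate 1 of 11. Transgenic replicates 3 and 7 had the highest level of 13 genes each, wildtype replicate 4 of 12 and transgenic replicate 5 of 10. On the deposited linear scale the probes of the 70 genes summed to 4.70% to 5.50% of the signal of an array, with group means of 5.18% ± 0.23 (SD, n = 7, transgenic) and 4.97% ± 0.19 (SD, n = 9, wildtype). The deposited arrays share a common mean, so this is a share of total signal and not an amount.

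How far the members stood apart between animals depended on how arrays were scaled. Cyclic loess gave averages from -0.16 to 0.13 and the deposited scaling from -0.13 to 0.10, with transgenic replicate 3 highest and wildtype replicate 9 lowest in both. Median scaling gave -0.13 to 0.096 with another order: the sign turned in transgenic replicates 1 to 4 and 6 and wildtype replicates 2, 4, 5, 6, 8 and 9. Under the deposited scaling the median level of the tested probes itself differed between arrays, from -0.15 in wildtype replicate 8 to 0.13 in transgenic replicate 3 relative to their mean, and median scaling removes those differences from every gene.

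**Figure D4:**
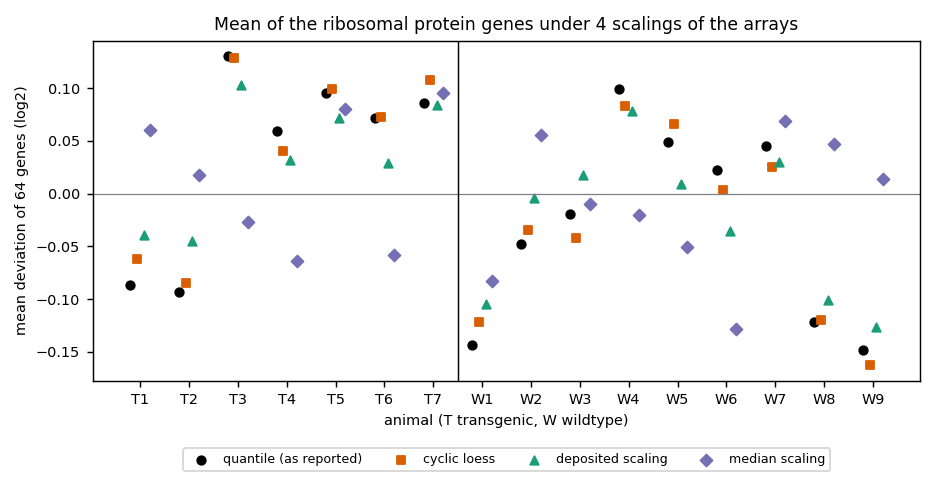
Average deviation of the 64 genes (log2, vertical axis) in each animal under 4 ways of scaling the arrays, given by the symbols. Quantile normalization, cyclic loess and the deposited scaling place transgenic replicate 3 at 0.10 to 0.13 and wildtype replicate 9 at -0.13 to -0.16, while median scaling places them at -0.027 and 0.014.

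The arrays' main axis of variation, the first principal component, was recomputed without any probe of the 70 genes and held 57.2% of the variance of the other tested probes. Transgenic replicates 1 and 2 and wildtype replicates 1, 2, 8 and 9 had its lowest coordinates (-31.1 to -25.8) and also the lowest averages of the ribosomal protein genes (-0.15 to -0.048). Transgenic replicate 3 had the highest coordinate (25.6) and the highest average. Under median scaling the averages of the same 6 animals ran from -0.083 to 0.060 and were no longer the lowest 6. On this axis those 6 animals lay apart from the other 10, which ran from -2.4 to 25.6, so no correlation over all animals is given. Wherever the main axis served as a covariate in the limma fit, it was instead computed over all tested probes, those of the members included. With that covariate, 41 of 64 genes (64.1%) had the higher mean in transgenic liver, beside 50.2% of all probes, and 0 passed. Macrophage markers moved with the axis computed without the 70 genes. Its direction was set so that Gpnmb rises along it, and 5 of 8 listed genes had a named probe (Cd68, Csf1r, Gpnmb, Lyz2 and Mmp12). Their deposited intensities summed to 385 to 10004 in transgenic and 386 to 7348 in wildtype animals. Cd68, Gpnmb and Mmp12 were above the noise on 10 of 16 arrays each, and Csf1r and Lyz2 on all 16. Of the other marker lists some moved with the axis and some did not, given here as the average deviation of a list in an animal (log2). The tested marker probes were among those that the axis was computed from, so such movement is partly built in. The 5 macrophage markers stood at -1.95 to -1.50 in the 6 animals of lowest coordinate and at -0.21 to 1.59 in the other 10. The 4 hepatocyte markers stood at 0.14 to 0.29 in the 6 animals of lowest coordinate and at -0.36 to -0.00060 in the other 10. Serpina1a varied most of the 4, with deposited intensities of 6735 to 9563 in those 6 animals against 2254 to 4679 in the other 10. The intensities of Apoa1, Apoa2 and Trf overlapped between these sets, at 25194 to 27548 against 19693 to 26252 for Trf. The 5 stellate cell and fibroblast markers stood at -0.47 to -0.13 against -0.23 to 0.53, the 2 neutrophil markers at -0.64 to -0.24 against -0.54 to 0.63, and Spp1, the tested marker of bile duct cells, at -1.44 to -0.57 against -0.63 to 1.91. The 3 endothelial markers overlapped widely, at -0.34 to 0.15 against -0.32 to 0.24, and so did the T cell marker Cd3e, at -0.55 to 0.19 against -0.37 to 0.45. The 2 B cell markers stood at 0.033 to 0.66 against -0.74 to 0.43, and the 2 red cell markers at -0.26 to 0.52 against -0.41 to 0.074. The part of these cells in the levels of the ribosomal protein genes was not tested, and in bulk liver more cells of a type and more RNA per cell cannot be told apart.

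**Figure D5:**
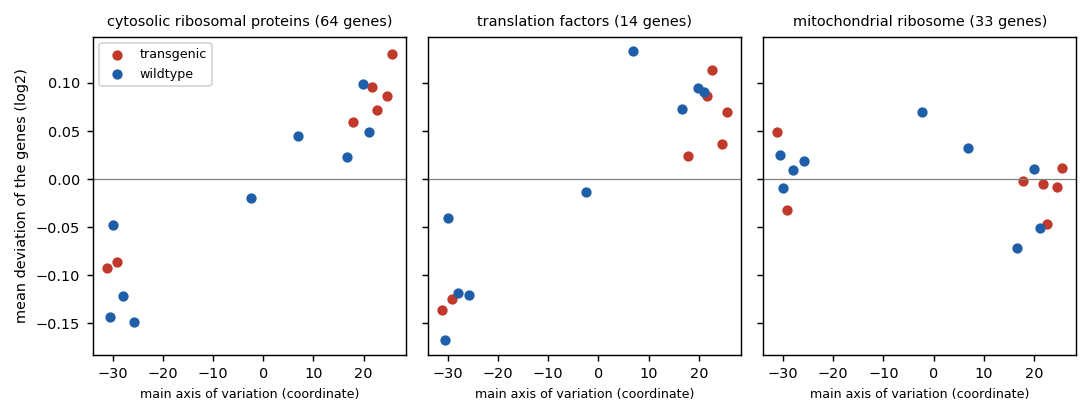
Mean deviation of the genes of 3 lists (log2, vertical axis) against the coordinate of each animal on the main axis of variation computed without the ribosomal protein probes (horizontal axis), with transgenic animals in red and wildtype in blue. The 64 cytosolic ribosomal protein genes run from -0.15 to 0.13 and the 14 translation factors from -0.17 to 0.13, both low at the left, while the 33 mitochondrial ribosomal genes stay between -0.071 and 0.070.

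Other genes of the translation machinery, from lists written down together with the members, gave 0 calls as well. Of 22 translation factors and other messenger RNAs listed with a terminal oligopyrimidine tract, 14 were tested, 7 higher and 7 lower, with a median difference of 0.010. The smallest p there belonged to Hnrnpa1, an RNA-binding protein (0.24, SE 0.13), and Eif3e, a subunit of initiation factor eIF3 (-0.16, SE 0.096). Ribosome assembly genes had 12 of 15 tested members higher, with a median of 0.089. Nop58 (0.28, SE 0.13) and Nop56 (0.22, SE 0.10), core proteins of the particles that methylate ribosomal RNA, led this list. Genes of the mitochondrial ribosome, the nearest counterpart in another compartment, were split with 17 of 33 higher and a median of 0.0065, led by Mrpl47 (-0.20, SE 0.080) and Mrps12 (-0.27, SE 0.15). Each of these 6 genes had an adjusted p of 0.932 by limma, and no difference between the lists was tested.

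Some members gave almost no signal. Rpl4, Rplp2, Rps15a, Rps18, Rps19 and Rpsa encode core ribosomal proteins, Rplp2 in the acidic stalk and Rps19 as the gene most often mutated in human Diamond-Blackfan anaemia, and their probes were above the noise on 0 to 2 of 16 arrays. For Rps18 the deposited intensity ran from -51.1 to -2.6, and for Rpsa from -17.7 to 6.7. Rplp0, the base of the acidic stalk, was read at 18 to 97, above the noise on 15 of 16 arrays, and its difference was 0.071 (SE 0.12, adjusted p = 0.935 by limma), with the sign turned when the main axis was a covariate. These low signals are values of the probes and give no level of the messenger RNA.

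In 9 genes more than 1 probe could be named, and some of these pairs differed widely within a gene. For Rpl23, a large-subunit protein that can bind Mdm2, 1 probe gave deposited intensities of 12873.3 to 16022.5 and the other -6.6 to 22.6 in the same 16 livers. For Rpl37 the intensities were 11040.5 to 13553.4 and -17.2 to 31.2, and for Rpl38 they were 9903.8 to 12593.0 and -3.0 to 32.1. Rpl17 and Rpl21 also had a bright probe and a probe on which 0 and 2 of 16 arrays stood above the noise. In Rpl13a, Rpl27a, Rps3 and Rps9 both probes were above the noise on all 16 arrays.

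Probe identifiers write the gene number after 1 or 2 zeros. Of the 57 probes of members with 1 zero, 57 were tested (100%), and of the 21 with 2 zeros, 10 were (47.6%). Over all named probes the shares were alike, at 49.7% of 5008 with 1 zero and 49.4% of 3876 with 2 zeros. No source used here says what the zeros stand for. The 6 genes left untested were all read by probes with 2 zeros. Among tested genes of low signal, Rplp0, Rps24 and Rpl18 were read by probes with 2 zeros, and Rpl29 and Rps4l by probes with 1.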

How the data were processed

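Total RNA of liver was turned into biotin-labelled cRNA and hybridised to Illumina bead arrays, per the labels' protocols. The authors deposited intensity values on a linear scale, 1 column per animal, from BeadStudio 1.5.1.3 per the submitters' processing notes. Between 30.0% and 33.8% of an array's values lie below 0, so a background was subtracted, and the array means lie between 331.4 and 333.5. How arrays were scaled is not given in these sources. Another deposited table, headed as not normalized, names 128 columns by chip position alone, which no label ties to animals, so it was not used, and slide batches were not tested.

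With limma 3.58.1 in R 4.3.3, each array's intensities were normexp-corrected (saddle point, offset 16), log2 transformed and then quantile normalized. A probe was above the noise when its deposited intensity exceeded 1.645 times the root mean square of its array's negative values, and was tested when this held on at least 6 arrays (11317 probes). The number in a probe identifier, or its RefSeq transcript, was matched to a RefSeq table of GRCm38.p6, which named 8893 probes (37.0%). Genotypes were compared with lmFit and eBayes, two-sided, with Benjamini-Hochberg adjustment over all tested probes, threshold 0.05 and no covariate. The fit was tested on simulated data with planted changes of 1.5-fold or more, and differences as small as those of the members were not simulated. The number of arrays limits the precision, and the p-values take the animals as independent.

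The members, lists and alternatives were chosen with earlier results of these data known. Named members were the 10 of smallest p, the 3 highest and 3 lowest by level and by SD, Rplp0, Rps6, Rps27 and Rps27l, those with a lower mean in transgenic liver, and those whose probes differ in sign; other lists name 2 genes of smallest p. Members named for their probes in the closing paragraphs of the report were chosen after their values were seen. A gene that the rule names is not reported here by name; it stays in the counts, medians and averages. Alternatives covered background correction, offset, scaling, the probe filter, title numbers as a block, weights for arrays, a trended robust variance, the main axis as a covariate, the probe per gene and each animal left out.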

Additional observations from a re-analysis of the deposited data

Results flagged for a closer look

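The level of a single animal stood apart from the rest of its genotype in 6 of 52 sets checked (the 24 named genes, the average of the members and the 18S rRNA probe, each in 2 genotypes), where chance gives about 1 in 20. The named genes were chosen in part by their SD in the same data and vary together, so this count tests no excess. Transgenic replicate 3 was apart in Rpl27a, at 13.50 against 13.35 for the next animal, and in Rps4l, at 6.40 against 6.90. Transgenic replicate 1 was highest in Rpl41, at 14.55 against 14.46. Wildtype replicate 8 was lowest in Rpl41, at 13.95 against 14.25. Wildtype replicate 9 was lowest in Rplp0, at 6.14 against 6.70, and wildtype replicate 1 in Rps24, at 6.06 against 6.57. Rplp0, Rps24 and Rps4l were read by dim probes. In Rpl41 the transgenic and the wildtype groups each held such an animal, on opposite sides.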

How the results depend on the processing

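Under every alternative run and with each animal left out, 0 members passed the adjusted threshold (lowest adjusted p 0.301, with the title number as a fixed replicate block), and 0 of all probes did. The median difference of the members stayed above 0, from 0.015 (median scaling) to 0.14 (fixed replicate block), and from 0.046 to 0.094 with single animals left out. The share of members with the higher mean ran from 64.1% (41 of 64, main axis as a covariate) to 92.2% (cyclic loess). It was 88.6% (62 of 70) with no probe filter. With single animals left out, 52 to 58 members had the higher mean. Same-numbered animals of different genotypes deviated oppositely from their group means (correlations -0.47 to -0.13). Several of these pairs share an animal, so they cannot show whether the title number pairs animals. The fixed replicate block rests on 3 numbers found in both genotypes; 6 members (9.38%) then had an unadjusted p under 0.05, beside 13.3% of all probes, and 4 (6.25%) beside 10.6% with array weights. As a random replicate block the number gave a median of 0.068.

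Signs turned for genes whose difference was small. Under median scaling the differences became -0.011 for Rps2, -0.013 for Rps25, -0.040 for Rps27, -0.036 for Rps27a and 0.0035 for Rps4l. With the deposited scaling they became -0.0072 for Rps27, -0.0033 for Rps27a and 0.037 for Rps4l, and under cyclic loess 0.0037 for Rpl27a and 0.010 for Rps4l. With the main axis as a covariate they became 0.016 for Rpl35a, -0.021 for Rplp0, -0.026 for Rps14, -0.012 for Rps27, -0.037 for Rps27a, 0.069 for Rps4l and -0.0054 for Rps6. The fixed replicate block gave 0.033 for Rpl27a, and the mean of all probes of a gene 0.014 for Rpl27a. With single animals left out the difference ran from -0.074 to 0.018 for Rpl35a, -0.013 to 0.11 for Rplp0, -0.012 to 0.029 for Rps27, -0.017 to 0.044 for Rps27a, -0.088 to 0.053 for Rps4l and -0.0057 to 0.11 for Rps6. The cause was not tested. Other settings for ranks of spread and for the SD of Rps27l were chosen after seeing the data. In those ranks, 16 members were among the 100 least variable probes with the deposited scaling, and 5 with an offset of 50 or median scaling. The 5 with an offset of 50 were all among the 6 of the reported values. Those under median scaling were other genes, none of them among the 6.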

Other observations

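Genes that steer ribosome production were described from lists chosen with earlier results known. Of 14 genes of mTORC1 signalling 5 were tested and 1 had the higher mean in transgenic liver, Eif4ebp1, a repressor of cap-dependent translation (0.13, SE 0.11). Its relative Eif4ebp2 differed by -0.11 (SE 0.081). Of 16 p53 targets 4 were tested and 3 were higher, led by the cell cycle inhibitor Cdkn1a (0.92, SE 0.69) and Zmat3 (0.12, SE 0.15). The adjusted p of these 4 genes was 0.932 by limma. Averaged over the 4 p53 targets, animals ran from -0.85 in wildtype replicate 9 to 0.73 in wildtype replicate 4. Cdkn1a weighs most in this average: the SE of its difference was 0.69, against 0.11 to 0.15 for Ccng1, Zmat3 and Aen.

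The array also carries a probe for 18S rRNA, the RNA core of the small subunit. Its deposited intensity ran from 4054 through 6361 to 7634 in transgenic and from 3420 through 6039 to 6927 in wildtype liver, lowest in wildtype replicate 8 and highest in transgenic replicate 3. On the log2 scale the difference was 0.11 (SE 0.15, adjusted p = 0.933 by limma). Ribosomal RNA has no poly(A) tail, so what share of it the labelling reached is not known.

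The titles number the animals, some sharing a number, and what it stands for is not stated. Within a genotype, the deviations of same-numbered animals from their group mean correlated over the tested probes, which are not independent, at 0.22 to 0.52. These animals also lay on the same side of the main axis, as did transgenic replicates 1 and 2, whose numbers differ. Pairs of different numbers were not compared, so likeness by number cannot be told apart from likeness along that axis. The 3 transgenic animals numbered 12 had averages of the ribosomal protein genes of 0.13, 0.059 and 0.096, while the wildtype animal of that number stood at -0.12. For number 13 the transgenic animal was at 0.072 and the wildtype animal at -0.15, and for number 9 they were at -0.093 and -0.019.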
